A study of Homo sapiens with 28 samples.

Results

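The human Schlafen genes SLFN5, SLFN11, SLFN12, SLFN13, SLFN12L and SLFN14 lie next to one another on chromosome 17. Open chromatin in and around these 6 genes was followed in Kuramochi, an established ovarian cancer cell line with a BRCA2 mutation, after adaptation or short exposure to the PARP inhibitor olaparib. The assay was ATAC-seq, in which a transposase cuts accessible DNA, so that more counts in a region (a peak) mean more open chromatin. Members were all consensus peaks of the deposited table that overlapped, or lay within 20 kb of, the body of 1 of the 6 genes in GRCh38. This gave 8 of the 105048 peaks, out of 3880 on chromosome 17, over a stretch of 318 kb. Of these 8 peaks 7 are described one by one, and counts and medians cover all 8.

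All libraries came from this 1 BRCA2-mutant line, and each of the 10 populations had 2 libraries. Untreated cells form the population C. The T populations are resistant cells grown at the olaparib dose to which they had adapted, which their names give (5, 10, 20, 40, 80, 160 or 320 µM). The P populations, called persisters in the labels, are previously untreated cells given 10 µM (P10) or 320 µM (P320) for 9 days. Cells of C and of all T populations went through a sort by CD24 and CD44, in which T cells with low CD24 and high CD44 were taken. The labels name none for the P cells, so sorting cannot be told apart from adaptation or exposure. Each T dose is 1 adapted population, and nothing in the labels says whether its 2 libraries came from separate cultures. P-values therefore measure only the spread between these libraries, which may be technical. Total counts ran from 9627970 to 29699950 per library. In C and the T populations replicate 1 was always the shallower library.

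Schlafen proteins share a nuclease-like fold, which in several of them acts on transfer or ribosomal RNA, and several of the genes respond to interferon. SLFN11 is recruited to stalled replication forks through the single-strand binding protein RPA and blocks replication for good, so that cells with SLFN11 are sensitive to PARP inhibitors, topoisomerase inhibitors and platinum drugs. Loss of SLFN11 expression, often with promoter methylation or repressive histone marks, is a known route to resistance to such drugs. Levels are given as CPM, counts scaled by library size and edgeR's TMM factors, as mean ± SD over n = 2 libraries where a mean is shown.

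The promoters of SLFN11, SLFN12 and SLFN12L are shown because only these 3 member genes have a promoter sequence here. A peak covers the SLFN12 start and another begins just upstream of the SLFN11 start, while SLFN12L has none near its start. The sequences run from 250 bases before to 50 bases after the start given by RefSeq (GRCh38.p14), 5′ to 3′ along the gene, and all 3 genes lie on the minus strand. The SLFN11 window is chr17:35373572-35373871, the SLFN12 window chr17:35433125-35433424 and the SLFN12L window chr17:35537629-35537928. Capitals mark every match to the motifs searched.
SLFN11: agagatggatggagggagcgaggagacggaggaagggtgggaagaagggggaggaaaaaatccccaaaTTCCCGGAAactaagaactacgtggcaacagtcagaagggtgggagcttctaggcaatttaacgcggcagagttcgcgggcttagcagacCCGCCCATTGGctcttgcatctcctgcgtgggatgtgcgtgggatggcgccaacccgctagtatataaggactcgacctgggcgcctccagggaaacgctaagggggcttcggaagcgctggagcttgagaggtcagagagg
SLFN12: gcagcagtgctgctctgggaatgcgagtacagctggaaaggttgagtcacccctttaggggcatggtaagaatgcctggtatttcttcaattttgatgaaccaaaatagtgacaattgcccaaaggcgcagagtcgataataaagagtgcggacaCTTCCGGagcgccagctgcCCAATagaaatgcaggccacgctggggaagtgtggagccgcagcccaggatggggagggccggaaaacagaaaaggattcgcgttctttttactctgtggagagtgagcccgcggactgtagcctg
SLFN12L: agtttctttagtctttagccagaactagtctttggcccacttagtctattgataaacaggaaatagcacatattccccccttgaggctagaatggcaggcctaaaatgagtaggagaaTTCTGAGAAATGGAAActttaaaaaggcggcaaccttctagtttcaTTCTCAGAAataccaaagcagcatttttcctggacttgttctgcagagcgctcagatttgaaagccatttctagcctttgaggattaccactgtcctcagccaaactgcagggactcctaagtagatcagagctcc

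The SLFN11 promoter held 18 CpG and the SLFN12 promoter 13, against a median of 14 over 35116 RefSeq promoter windows, while the SLFN12L promoter held 2. Their GC content was 58.0%, 53.3% and 43.0%, with a median of 58.7% over all windows. Both strands were searched for the TATA box TATAAA, the CCAAT box CCAAT, the GC box GGGCGG, the ETS site CCGGAAG, the interferon-stimulated response element (GAAA, any 2 bases, GAAA) and the STAT element TTCNNNGAA. Only these letters were counted, so shorter or variant sites were missed. Positions give the first base of a match relative to the RefSeq start. SLFN11 held a STAT element at -182, a GC box at -92 and a CCAAT box at -86, the latter pair on the opposite strand. SLFN12 held an ETS site at -95, on the opposite strand, and a CCAAT box at -76. SLFN12L held an interferon-stimulated response element at -126 and STAT elements at -132 and -86, the first of which overlaps the response element. No exact TATAAA was found in these 3 windows. The SLFN11 window does hold the similar stretch TATATAAG, upstream of its start, which this search did not count. Of all promoter windows 11.5% hold a TATAAA, 34.6% a CCAAT box, 45.0% a GC box, 10.3% a CCGGAAG, 3.57% an interferon-stimulated response element and 7.66% a TTCNNNGAA. These matches are letters in a window, not measured binding.

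The deposited peak next to the SLFN11 start spans chr17:35373704-35374730. It begins 83 bases upstream of the RefSeq start and covers 167 of the 300 promoter bases, with the STAT element and the GC box inside it and the CCAAT box just outside. The peak also overlaps LOC105371933, a neighbouring RefSeq gene, and counts as a start peak of that gene too. SLFN11 has no other member peak, and none lies in its 23.3 kb body. The SLFN12 start peak, chr17:35432063-35434237, covers 299 of the 300 bases of its promoter and both motif matches. SLFN12L, with a body of 73.4 kb, held no peak, and the nearest peak lay 29.7 kb from its start.

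**Figure D1:**
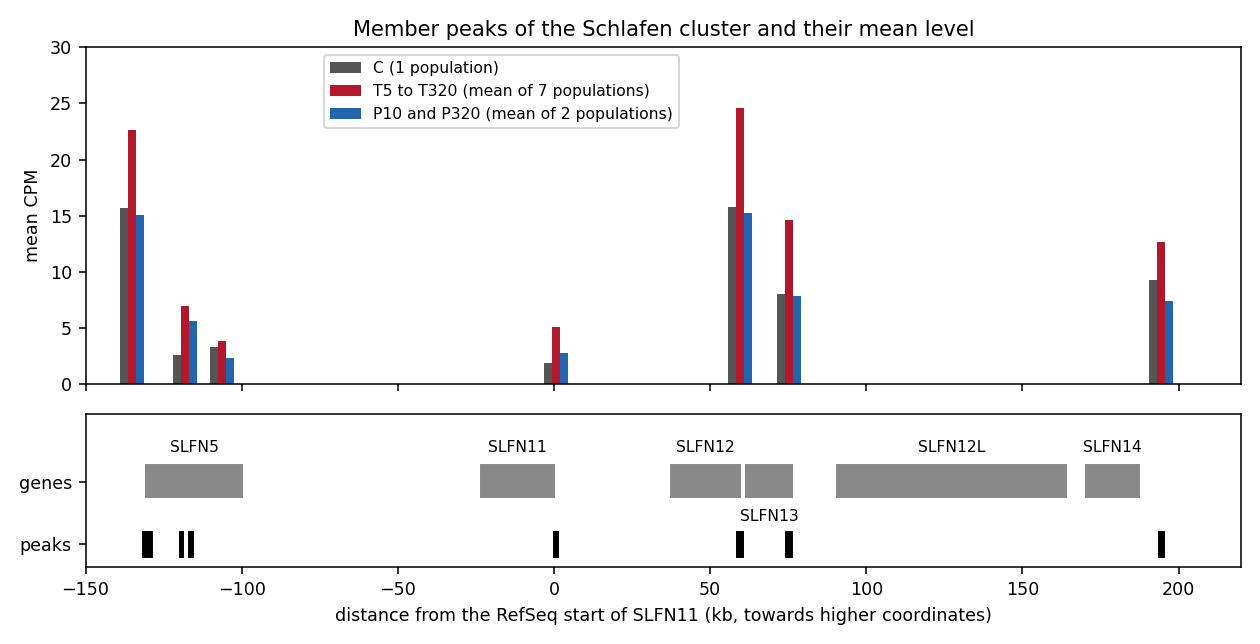
The 7 member peaks described one by one, along the Schlafen cluster, by distance in kb from the RefSeq start of SLFN11 (horizontal axis), with gene bodies in grey and peaks in black below. Bars give the mean CPM of C (grey), of the 7 adapted populations (red) and of P10 and P320 (blue), and bars of neighbouring peaks are moved apart for legibility. At SLFN11 the 3 bars stand at 1.88, 5.10 and 2.75 CPM, and at SLFN12 at 15.7, 24.6 and 15.3 CPM.

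The SLFN11 start peak was the least accessible member in C, at 1.83 CPM per kb, and higher in most adapted populations. Its counts ran from 24 to 144 per library, which makes it one of the shallowest members. C held 1.97 and 1.79 CPM in replicates 1 and 2. T5 held 1.72 and 3.65 CPM, and T10 held 5.47 and 4.73. T20 held 3.91 and 7.33 CPM, T40 held 4.40 and 7.04, and T80 held 7.30 and 6.30. T160 held 4.64 and 4.55 CPM, and T320 held 3.94 and 6.45. P10 held 3.88 and 2.66 CPM, and P320 held 2.65 and 1.82. Of the 14 adapted libraries 13 lay above both C libraries, the exception being T5 replicate 1, and 12 lay above all 4 libraries of P10 and P320.

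By mean level the SLFN11 peak ordered the populations as T80 (6.80 ± 0.71 CPM), T40 (5.72 ± 1.86), T20 (5.62 ± 2.42), T320 (5.2 ± 1.78), T10 (5.10 ± 0.52), T160 (4.59 ± 0.07), P10 (3.27 ± 0.86), T5 (2.68 ± 1.37), P320 (2.23 ± 0.58) and C (1.88 ± 0.13). Only T10 with T160 and T160 with P10 were neighbours in this order whose libraries did not overlap. Both T5 libraries lay below all 12 libraries of the other adapted populations. Both T80 libraries also lay above both T10 and both T160 libraries, while T20, T40 and T320 each overlapped T10 and T80. In bulk cells, more cells with an open SLFN11 start peak and a peak more open in each cell cannot be told apart.

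Calls of gain or loss needed an adjusted p under 0.05 (edgeR's quasi-likelihood test, Benjamini-Hochberg over all peaks) together with a change of 1 log2 unit or more. The SLFN11 peak was gained against C in 6 of the 7 adapted populations. T10 gave a log2 fold change of 1.44 ± 0.40 (standard error; adjusted p = 0.014), T20 of 1.60 ± 0.41 (0.0050) and T40 of 1.63 ± 0.41 (0.0043). The fold change was highest in T80, at 1.85 ± 0.40 (0.0016), while T160 gave 1.29 ± 0.41 (0.020) and T320 gave 1.49 ± 0.41 (0.0062). In T5 it was 0.55 ± 0.41 (adjusted p = 0.41). The 9 comparisons with C share its 2 libraries and are not independent of one another. The mean of the 7 adapted populations against C gave 1.41 ± 0.34 (adjusted p = 0.0023), and this call held under each of the 26 alternatives run, with values from 1.13 to 1.47. Settings without the expression filter, which removed no peak, or without the minimum change could not end it. Most of the others left out 1 library.

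Single dose calls of SLFN11 were less firm. The T320 call was lost when C replicate 2 was left out (adjusted p = 0.054, log2 fold change 1.42) and when T320 replicate 2 was (adjusted p = 0.12, log2 fold change 1.07). The T10 call was lost without T10 replicate 1 (1.34) and without C replicate 2 (1.36), the T20 call without T20 replicate 2 (1.06) and the T40 call without T40 replicate 2 (1.23). Under the window offset, which subtracts the median shift of each 5 Mb window, the T10 (1.07) and T160 (0.93) calls were lost. The T160 call was lost when any 1 of its 4 libraries was left out, with values from 1.22 to 1.35. The T80 call was kept under all 14 alternatives, those that could not end it included.

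**Figure D2:**
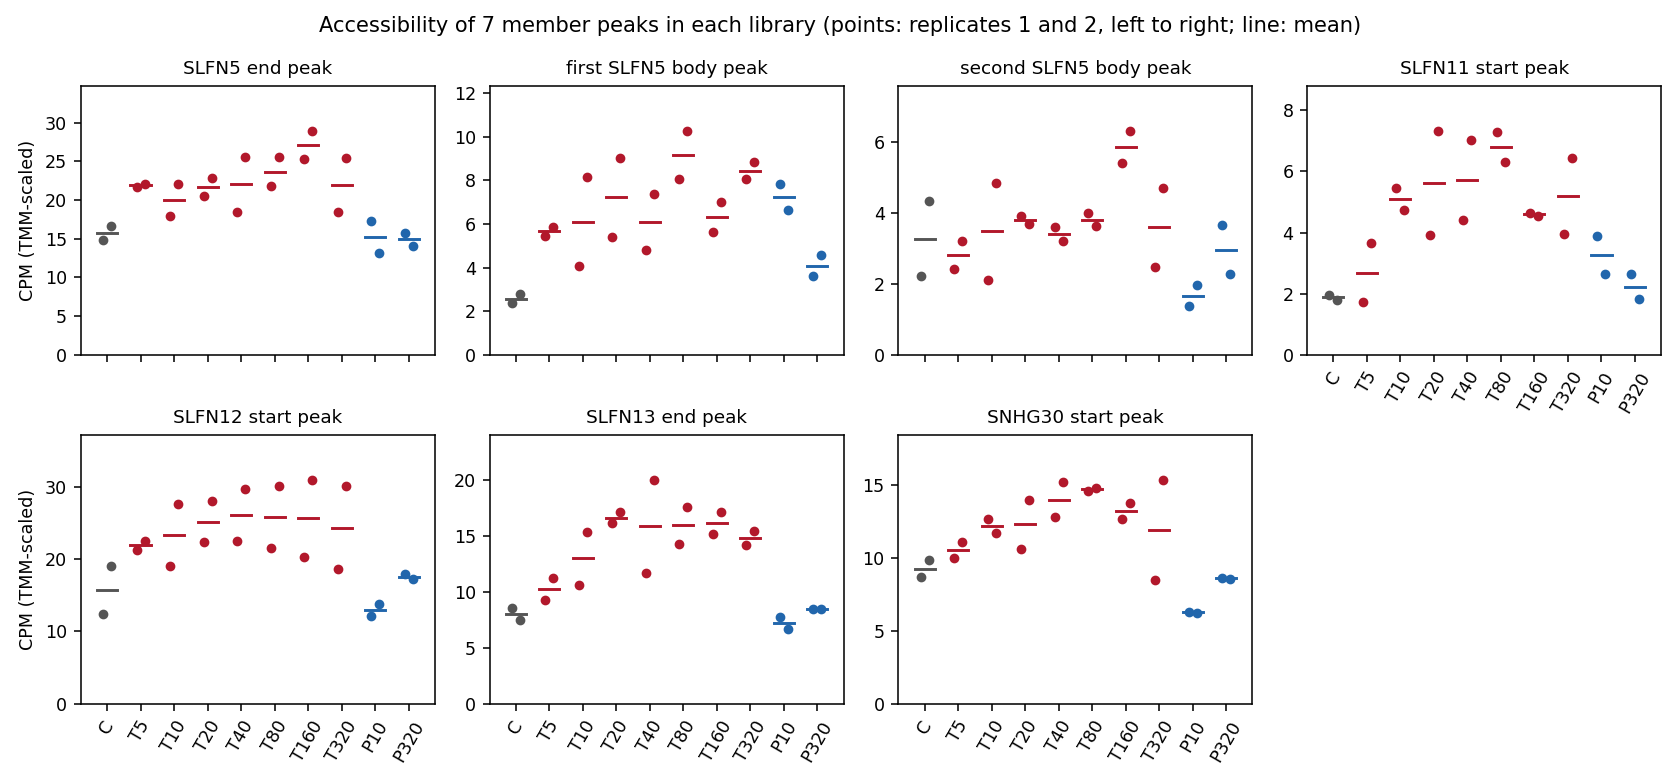
CPM (vertical axis) of 7 member peaks in the 20 libraries, by population (horizontal axis), with C in grey, adapted populations in red and P10 and P320 in blue. Points are replicates 1 and 2 from left to right and lines are means. At SLFN11 the C libraries stand at 1.97 and 1.79 CPM and the T80 libraries at 7.30 and 6.30 CPM.

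SLFN5 encodes a nuclear Schlafen protein that restricts viral genomes and modulates interferon-driven transcription. Its 30.6 kb body carried 3 member peaks, which behaved differently from one another. The peak at its low-coordinate end, chr17:35242056-35244875, also touches the end of LOC105371932. RefSeq's promoter table, as used here, gives no start for SLFN5, so the peak is called an end peak. It was a wide, open peak in all populations, with 14.8 and 16.6 CPM in C, 17.9 to 28.9 CPM in the 14 adapted libraries and 13.2 to 17.2 CPM in the 4 libraries of P10 and P320. All 14 adapted libraries lay above both C libraries and above all 4 exposed ones.

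The difference at the SLFN5 end peak was under the fold minimum. The mean of the adapted populations against C gave 0.52 ± 0.17 (adjusted p = 0.016), with single populations from 0.35 in T10 to 0.78 in T160. P10 gave -0.05 ± 0.21 and P320 -0.08 ± 0.21.

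The first peak inside SLFN5, chr17:35253845-35254892, lies 10.8 kb in from that end and was low in C, at 2.38 and 2.78 CPM. T5 held 5.45 and 5.88 CPM, and T10 held 4.08 and 8.13. T20 held 5.41 and 9.04 CPM, T40 held 4.80 and 7.40, and T80 held 8.06 and 10.3. T160 held 5.62 and 7.0 CPM, and T320 held 8.05 and 8.83. P10 held 7.85 and 6.63 CPM, and P320 held 3.60 and 4.57. All 18 libraries outside C lay above both C libraries.

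This SLFN5 body peak was the member called in most comparisons. It was gained in all 7 adapted populations, with the smallest log2 fold change in T5 (1.12) and the largest in T80 (1.82) and T320 (1.70), while T10, T20, T40 and T160 gave 1.26, 1.49, 1.25 and 1.28. It was the only member gained in P10, at 1.47 ± 0.33 (adjusted p = 0.0027), and in P320 it stood at 0.65 ± 0.34 (adjusted p = 0.19). Its T80, T320 and P10 calls each held under all 14 alternatives, and the call of the adapted mean, 1.42 ± 0.28 (adjusted p = 0.00045), held under all 26. These tallies include the settings that could not end a call. The T5 call was lost without any 1 of its 4 libraries (1.03 to 1.25). The T10 call was lost without C replicate 1 (1.16) and without T10 replicate 2 (0.65), and the T20, T40 and T160 calls without their own replicate 2 (1.05, 0.88 and 1.11).

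The second peak inside SLFN5, chr17:35256833-35257763, was not called against C in any population. C held 2.22 and 4.34 CPM, the adapted libraries 2.11 to 6.32 and the exposed libraries 1.37 to 3.67, and 4 of the 14 adapted libraries lay above both C libraries. In P10 it gave -1.0 ± 0.43 (adjusted p = 0.076), and it passed as lost there without C replicate 1 (-1.38, adjusted p = 0.029), under TMM from gene-end peaks (-1.12, adjusted p = 0.042) and under the window offset (-1.26, adjusted p = 0.025). T160, at 5.41 and 6.32 CPM, stood above both C libraries with 0.81 ± 0.41 (adjusted p = 0.13).

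SLFN12 encodes a ribonuclease that is switched on when small molecules bridge it to the phosphodiesterase PDE3A. Its start peak was the most accessible member per kb, at 10.0 CPM per kb averaged over the populations, against 4.20 for SLFN11. C held 12.5 and 19.0 CPM, the adapted libraries 18.7 to 30.9 with a median of 22.5, and the exposed libraries 12.2 to 17.9. Of the 14 adapted libraries 13 lay above both C libraries and all lay above the exposed ones. The adapted mean against C was 0.63 ± 0.22 (adjusted p = 0.024), under the fold minimum, with 0.46 to 0.72 in single populations. Without C replicate 2 SLFN12 was called in T20, T40, T80 and T160 (1.01 to 1.07) and the adapted mean was 0.98, and without C replicate 1 that mean was 0.37. P10 gave -0.29 ± 0.28 and P320 gave 0.15 ± 0.27.

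SLFN13 encodes a nuclease of transfer and ribosomal RNA. A peak covers its high-coordinate end, chr17:35447808-35449872, and the SLFN12 start peak lies within 1 kb of its other end. C held 8.54 and 7.45 CPM. T5 held 9.30 and 11.2 CPM, T10 held 10.6 and 15.4, and T20 held 16.1 and 17.1. T40 held 11.7 and 20.0 CPM, T80 held 14.3 and 17.6, T160 held 15.2 and 17.1, and T320 held 14.2 and 15.5. P10 held 7.76 and 6.67 CPM, and P320 held 8.44 and 8.47. All 14 adapted libraries lay above all 6 libraries of C, P10 and P320.

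The SLFN13 end peak was gained in 4 adapted populations, each just past the fold minimum, at 1.06 ± 0.24 (T20), 1.02 ± 0.24 (T160), 1.01 ± 0.24 (T40) and 1.0 ± 0.24 (T80). T10 (0.72), T320 (0.90) and the adapted mean (0.87 ± 0.19, adjusted p = 0.0013) had adjusted p under 0.05 with a smaller fold. T5 gave 0.37 ± 0.24. The 4 calls were lost under TMM from gene-end peaks, the trended offset and the window offset, where the log2 fold changes lay between 0.65 and 0.97, and those in T40, T80 and T160 also under total-count scaling (0.96 to 0.98). The T40 and T80 calls were lost with the compared groups alone (0.96 and 0.97), and DESeq2 did not call T80. They were also lost without C replicate 2 (0.90 to 0.96), and the T40, T80 and T160 calls without their own replicate 2 (0.56, 0.82 and 0.93). P10 stood at -0.14 ± 0.24 and P320 at 0.09 ± 0.24.

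SLFN14, a ribosome-associated nuclease known from inherited platelet disorders, held no peak in its 16.8 kb body. A member peak of a neighbour, the non-coding RNA gene SNHG30, lies 6.6 kb away at chr17:35567408-35568781. The SNHG30 peak held 8.70 and 9.85 CPM in C, 8.48 to 15.4 in the adapted libraries and 6.23 to 8.65 in the exposed ones, and 13 of 14 adapted libraries lay above both C libraries. Its adapted mean against C was 0.45 ± 0.18 (adjusted p = 0.051). Just outside the 20 kb limit lie peaks 26.1 and 27.6 kb from SLFN14, with 6.02 ± 1.43 and 1.49 ± 0.02 CPM in C and 8.84 ± 1.25 and 4.28 ± 0.60 CPM in T320.

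**Figure D3:**
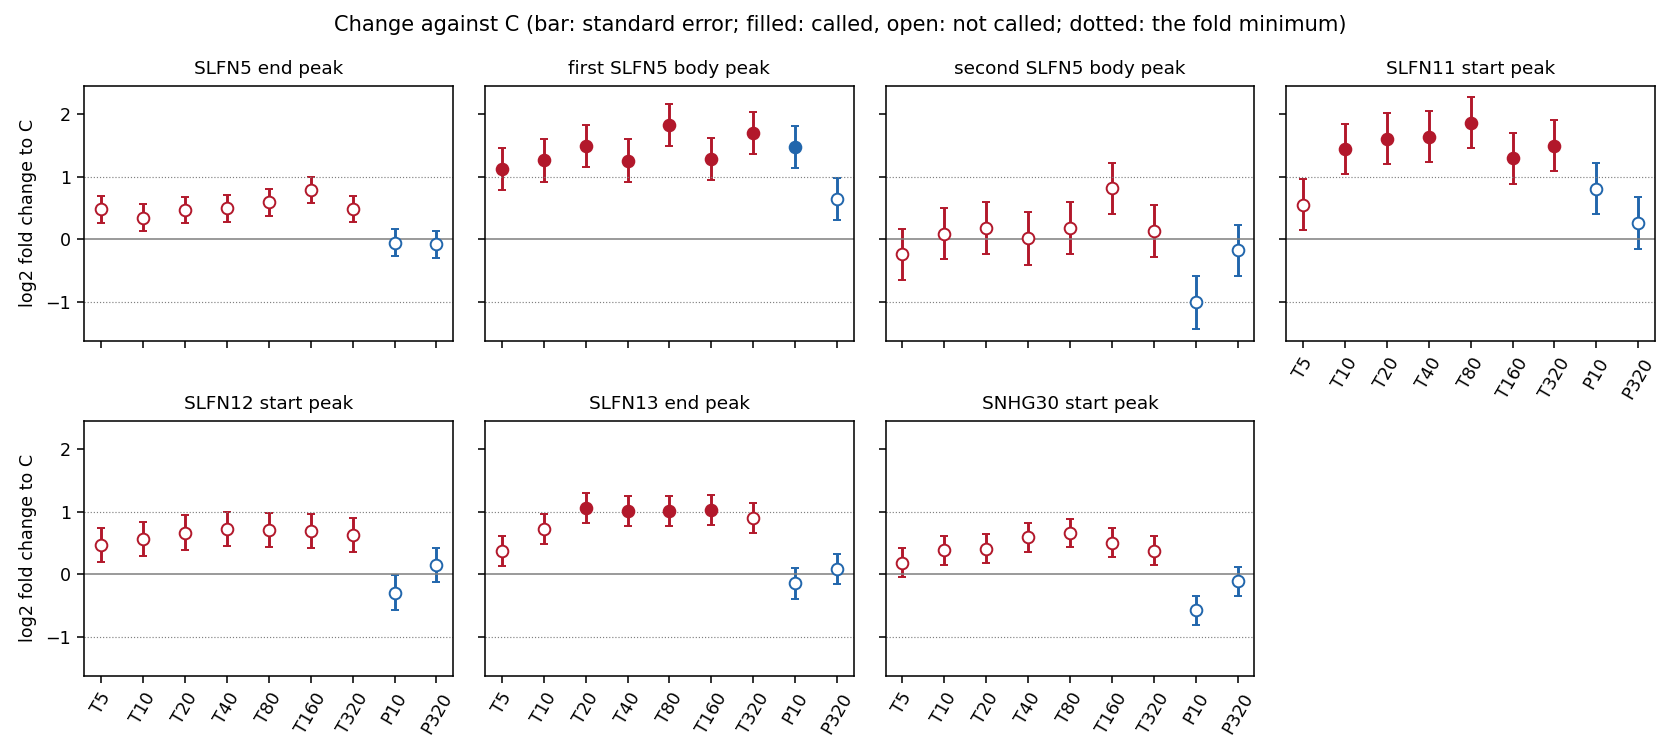
Log2 fold change against C (vertical axis) of the same 7 member peaks in the 7 adapted populations (red) and in P10 and P320 (blue), with bars of 1 standard error. Filled points were called, open points were not, and dotted lines mark the fold minimum of 1. SLFN11 is filled from T10 to T320 and open in T5 (0.55), P10 (0.80) and P320 (0.26).

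Across the cluster the log2 fold changes against C were positive at all 8 members in T10 to T320, and in T5 at all but the second SLFN5 body peak, although few reached the call. Under the window offset the second SLFN5 body peak turned negative in T10, T20, T40, T80 and T320 (-0.28 to -0.01), the SLFN5 end peak in T10 (-0.03) and SNHG30 in T5 (-0.10). Under TMM from gene-end peaks the second SLFN5 body peak also turned negative in T10 (-0.01) and T40 (-0.10). Over all 14 alternatives it reached lower values, -0.66 in T10, -0.36 in T40 and -0.43 in T320. The lowest value of SLFN11 in T5 was -0.12, and that of SNHG30 in T320 was -0.14, so these signs did not hold under every alternative. In T5, 1 of 8 members was gained, against 4.73% of all peaks, and in T10 2 of 8, against 8.51%. In T20, T40, T80 and T160, 3 of 8 were gained each time, against 11.2%, 11.8%, 12.3% and 11.0% of all peaks. In T320, 2 of 8 were gained, against 15.0%, and no member was lost in any of these populations. For the adapted mean 2 of 8 were gained, against 9.97%. At adjusted p under 0.05 alone, without the fold minimum, 5 of 8 passed, a count to which 9.97% does not apply. The share of all peaks that passed this looser rule is not given here, so the count is not a result about the members alone. The median log2 fold change of the members was 0.58 there and 0.56 in T320. Beside these stood 0.01 and -0.01 over all peaks, and 0.17 and 0.11 over all start peaks. With 8 members these counts stand on 1 or 2 peaks each.

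In cells exposed for 9 days the members lay on both sides of C. In P10 1 of 8 members was gained, against 9.32% of all peaks, and 2 of 8 had a positive fold change. The P10 median of the members was -0.22, beside -0.10 over all peaks and 0.13 over all start peaks. In P320 none of 8 was gained, against 3.94%, with none at an unadjusted p under 0.05 and none called by DESeq2. Its median was 0.12, beside -0.11 over all peaks and 0.38 over all start peaks. SLFN11 stood at 0.80 ± 0.41 in P10 (adjusted p = 0.14), where both libraries lay above both C libraries, and at 0.26 ± 0.41 in P320 (adjusted p = 0.71), where they overlapped and the sign turned under TMM from gene-end peaks (-0.23) and the window offset (-0.01).

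Adapted and exposed cells were compared at the 2 shared doses. At 320 µM SLFN11 was higher in T320 than in P320 by 1.23 ± 0.38 (adjusted p = 0.012) and the first SLFN5 body peak by 1.05 ± 0.31 (adjusted p = 0.0096). These 2 of 8 members were gained, against 19.7% of all peaks. The SLFN5 end peak (0.56) and SLFN13 (0.81) had adjusted p of 0.033 and 0.0077 under the fold minimum, and SLFN12 (0.48) had 0.15. The SLFN11 call was lost without T320 replicate 2 (0.81) and without P320 replicate 2 (0.92), and the SLFN5 body call without T320 replicate 2 (0.98), without P320 replicate 1 (0.82), under the trended offset (0.89) and with the compared groups alone (0.98). Under TMM from gene-end peaks the SLFN5 end peak (1.01) and SLFN13 (1.26) were gained as well.

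At 10 µM the gained member was another one. The second SLFN5 body peak was higher in T10 than in P10 by 1.10 ± 0.42 (adjusted p = 0.039), 1 of 8 against 17.8% of all peaks. Its call was lost without T10 replicate 2 (0.34) and without either P10 library (0.86 and 1.38), as well as under the trended offset (1.04), the window offset (0.98) and with the compared groups alone (1.08). SNHG30 (0.96), SLFN13 (0.86) and SLFN12 (0.85) had adjusted p under 0.05 with folds under the minimum, and without T10 replicate 1 SLFN12 and SLFN13 passed at 1.09 each, as did SNHG30 at 1.02 without T10 replicate 2. SLFN11 stood at 0.63 ± 0.38 (adjusted p = 0.17), and the first SLFN5 body peak at -0.22 ± 0.31.

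No dose trend was called at a member. Slopes over the 7 populations lay between 0.03 and 0.09 log2 units per doubling, with 0.09 ± 0.07 for SLFN11 (adjusted p = 0.39). None of 8 members was called by edgeR at a slope of at least 0.25, against 5.72% of the 105037 peaks tested, and none had an unadjusted p under 0.05 or was called by DESeq2. Between neighbouring doses edgeR and DESeq2 called none of 8 in T10 against T5, where 3.35% of all peaks were called, and none in T320 against T160, where 3.86% were. In T10 against T5 1 member, SLFN11, had an unadjusted p under 0.05, at 0.88 ± 0.38 (adjusted p = 0.20), and its libraries in the 2 populations did not overlap. In T320 against T160 no member did.

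Between the exposed populations none of 8 members was called in P320 against P10 by edgeR or DESeq2, against 13.8% of all peaks, and 2 had an unadjusted p under 0.05. The first SLFN5 body peak was among them, at -0.82 ± 0.31 (adjusted p = 0.065), and was lost under TMM from gene-end peaks (-1.15, adjusted p = 0.0078). The dose difference in adapted cells (T320 minus T10) was then set against that in exposed cells (P320 minus P10). It differed by 1.27 ± 0.44 log2 units at the first SLFN5 body peak (adjusted p = 0.038), 1 of 8 members gained against 13.6% of all peaks, and by 0.60 ± 0.53 at SLFN11 (adjusted p = 0.43).

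The members shared part of their pattern across the 10 populations. As a description over group means that share libraries and scaling, Pearson's r with the SLFN11 peak was 0.88 for SLFN13, 0.83 for the first SLFN5 body peak, 0.76 for SLFN12, 0.72 for the SLFN5 end peak and 0.42 for the second SLFN5 body peak. SLFN12 and SLFN13 had 0.96 with each other, and the 2 SLFN5 body peaks 0.08. Of 15515 start peaks of other genes, those most like SLFN11 by the same measure were at POU3F3 (0.98), CNRIP1 (0.98), CHST4 (0.98), PATE2 (0.98) and BDKRB2 (0.97). The POU3F3 peak, at the start of a neural transcription factor gene, went from 5.62 CPM in C to 20.8 in T320 and 8.60 in P320.

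The surroundings of the cluster were measured in the same way. The 140 other peaks within 2.5 Mb had a median log2 fold change of 0.18 in the adapted mean, with quartiles of -0.39 and 0.56, and 10 were gained and 11 lost. SLFN11, the first SLFN5 body peak, SLFN12 and SLFN13 lay above the upper quartile. In T320 the median was 0.05, in P10 0.31 and in P320 0.11. The window offset lowered the adapted mean of SLFN11 to 1.13 and of the first SLFN5 body peak to 1.14, both still called, and that of SLFN13 to 0.59, SLFN12 to 0.36 and the SLFN5 end peak to 0.24. With it no member was called in T5, T10 and T160. The part of such a regional shift in the member values was not tested further.

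**Figure D4:**
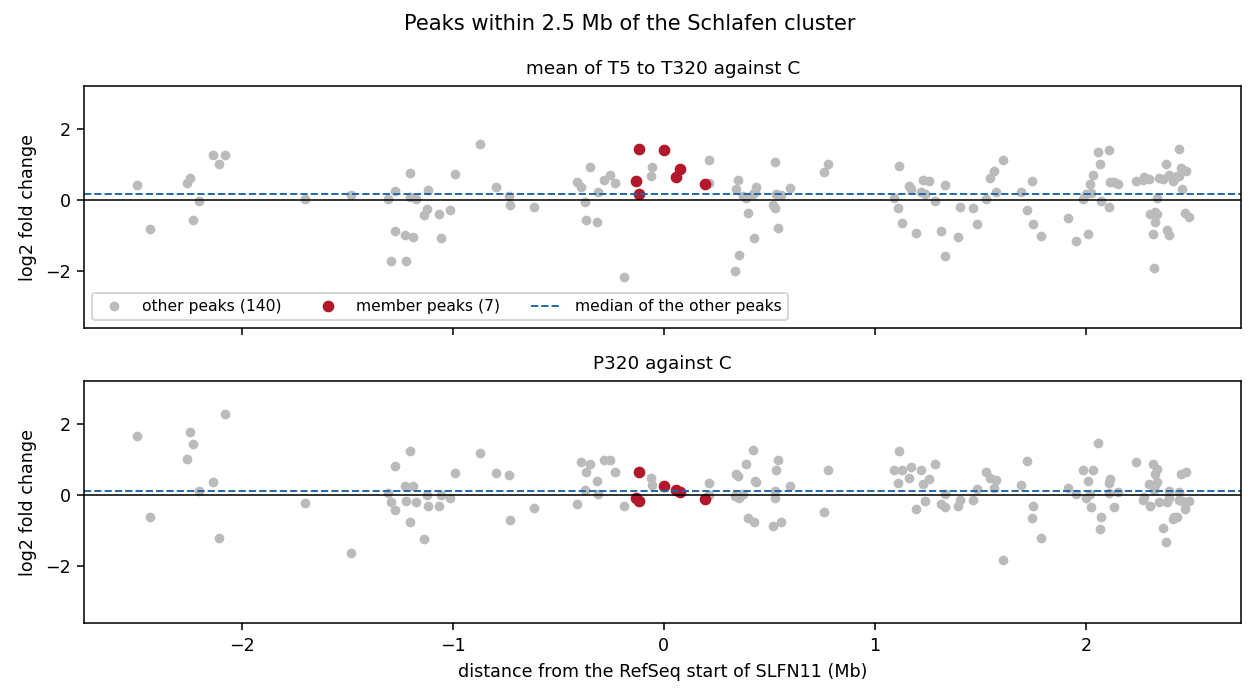
Log2 fold change (vertical axis) of 7 member peaks (red) and the 140 other peaks within 2.5 Mb (grey), by distance in Mb from the SLFN11 start, for the mean of the adapted populations against C (top) and P320 against C (bottom). The dashed line is the median of the other peaks, 0.18 above and 0.11 below. The SLFN11 peak at distance 0 stands at 1.41 above and 0.26 below.

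Genes on either side of the cluster were compared as well. Of 15 flanking genes 10 had a peak at a start or end (9 different peaks), and none was called in the adapted mean by edgeR or DESeq2, with 5 at an unadjusted p under 0.05. All 10 had positive values, with a median of 0.47 beside 0.17 over all start peaks. RAD51D, a homologous recombination gene, had the highest at 0.70, and LIG3, a DNA ligase gene, had 0.36. In T320 none was called by either tool, with 6 at an unadjusted p under 0.05 and a median of 0.51. In P320 1 of 10 was gained by edgeR, against 3.94% of all peaks. This was MMP28, a matrix metalloproteinase gene, at 1.26 ± 0.41 (adjusted p = 0.038, edgeR). DESeq2 called 3 of the 10, but the share of all peaks it called is not given here, and 3.94% does not apply to it. The MMP28 call was lost without any 1 of the 4 libraries of C and P320 (1.22 to 1.31). It was also lost under TMM from gene-end peaks (0.78), the window offset (0.99) and total-count scaling (1.18).

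Interferon signalling genes, the class with which several Schlafen genes respond, were called in both directions. Of 26 start peaks 3 were gained and 1 was lost in the adapted mean, where 9.97% of all peaks were gained and 12.7% lost, and the median was 0.15 beside 0.17 over all start peaks. IRF3, an interferon regulatory factor, rose by 1.21 ± 0.20, and OAS1 and OAS2, sensors of double-stranded RNA, rose by 1.16 ± 0.26 and 1.02 ± 0.24. IFI27, a classical interferon-induced gene, changed by -1.13 ± 0.16. IRF3 was not called without C replicate 1 (0.90). The OAS2 call ended without C replicate 2 (0.64), T320 replicate 1 (1.0), T10 replicate 2 (0.96) or T20 replicate 2 (0.96), and under TMM from gene-end peaks (0.90), the trended offset (0.95), the window offset (0.79) and total-count scaling (0.99). The window offset also ended the OAS1 call (0.92). In T320 IRF3 (1.42 ± 0.25) and OAS2 (1.01 ± 0.30) were gained and IFI27 (-1.33 ± 0.23) was lost, where 15.0% of all peaks were gained and 15.5% lost. Leaving out C replicate 2 (0.63) or T320 replicate 1 (0.81) ended the OAS2 call in T320. So did TMM from gene-end peaks (0.97), the trended offset (0.96), the window offset (0.67) and a fit of the compared groups alone (1.0, adjusted p = 0.053). In P320 JAK1, the interferon receptor kinase, and RSAD2, an antiviral enzyme, were gained at 1.11 ± 0.22 and 1.24 ± 0.28, and none was lost. Of all peaks 3.94% were gained there and 7.91% lost. The JAK1 call was lost without C replicate 1 (0.88) and the RSAD2 call without C replicate 2 (0.78). Under TMM from gene-end peaks neither was called (0.64 and 0.71) and the list held 0 gained and 2 lost in P320, and JAK1 was not called under the trended offset (0.89).

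Genes of the replication stress response in which SLFN11 acts were mostly not called. Of 22 start peaks none was called in the adapted mean by edgeR or DESeq2, with 10 at an unadjusted p under 0.05, and the median was 0.22. In T320 2 of 22 were gained, against 15.0% of all peaks. RPA3, a subunit of the complex that recruits SLFN11, was gained at 1.14 ± 0.44 (adjusted p = 0.044), and ATRIP, the partner of the checkpoint kinase ATR, at 1.02 ± 0.19. Without T320 replicate 2 neither was called (0.55 and 0.80), nor RPA3 without C replicate 2 (0.61) or ATRIP without C replicate 1 (0.98). The RPA3 call was also lost under TMM from gene-end peaks (1.03), total-count scaling (1.08) and with the compared groups alone (1.12), and it stood at 1.82 without C replicate 1. ATRIP fell under the call with the window offset (0.29, adjusted p = 0.21), the trended offset (0.95) and TMM from gene-end peaks (0.99). In P320 2 of 22 were gained, against 3.94% of all peaks. RPA1, the large RPA subunit, was gained there at 1.32 ± 0.21, and CUL4A, a ubiquitin ligase scaffold that controls fork-bound proteins, at 1.70 ± 0.28. TMM from gene-end peaks ended the RPA1 call (0.85) and kept that of CUL4A.

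Of 16 reported regulators of SLFN11, 14 had a start peak, and ETS1 and FLI1 had none. Of the 14, 1 was gained and 1 lost in the adapted mean (all peaks 9.97% and 12.7%) and in T320 (15.0% and 15.5%). In P320 3 were gained and 0 lost (all peaks 3.94% and 7.91%). ETS2, an ETS-family transcription factor, was gained in the adapted mean (1.12 ± 0.20), in T320 (1.18 ± 0.24) and in P320 (1.30 ± 0.24). DNMT3A, a DNA methyltransferase, changed by -1.69 ± 0.24 in T320, from 18.9 ± 3.8 to 5.98 ± 1.11 CPM, and by -1.0 ± 0.16 in the adapted mean, just past the fold minimum. Under the window offset the DNMT3A call was lost in T320 (-1.0) and in the adapted mean (-0.47), and the latter also without any 1 of 7 libraries, C replicate 2 (-0.78), T320 replicate 2 (-0.98) and replicate 1 of T5, T20, T40, T80 and T160 (-1.0 to -0.97). EZH2, the histone methyltransferase of the Polycomb complex, was gained in P320 (1.39 ± 0.19) and stood at -0.33 in T320, and ERG, another ETS factor, was gained in P320 (1.61 ± 0.34). The ETS2 calls were lost without C replicate 1 (0.72 in the adapted mean, 0.79 in T320 and 0.91 in P320), and in T320 also without T320 replicate 2 (0.94). The window offset ended them in the adapted mean (0.85) and in T320 (0.83), and without C replicate 2 these stood at 1.74 and 1.81. In P320 TMM from gene-end peaks ended the calls of ETS2 (0.85) and EZH2 (0.91) and kept that of ERG. Of the partners in transfer RNA biology and translation 6 of 7 had a start peak, PDE3A had none, and none was called in T320 or the adapted mean by edgeR or DESeq2, with 1 at an unadjusted p under 0.05 in each. PDE3B, a relative of PDE3A, was gained in P320 at 1.06 ± 0.21, 1 of 6 against 3.94% of all peaks. The PDE3B call was lost without C replicate 1 (0.96), under total-count scaling (0.99), the trended offset (0.96) and TMM from gene-end peaks (0.58).

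The labelled cell type was checked on start peaks. Of 11 markers of serous ovarian epithelium 10 had one, KRT7 being the exception, and their summed level was 217 to 303 CPM in C, 168 to 200 in the adapted libraries, 305 to 309 in P10 and 362 in P320. Of 12 blood cell markers 5 had a start peak, and the defining genes PTPRC and CD3E had none. The summed level of those 5 was 48.1 to 55.7 CPM in C, 44.8 to 69.1 in the adapted libraries, 101 to 106 in P10 and 82.6 to 86.2 in P320. Of 5 fibroblast markers 2 had a start peak, PDGFRB, DCN and LUM having none, and their sum was 18.2 to 23.1 CPM in C, 26.6 to 41.8 in T5 to T160, 21.7 to 22.7 in T320 and 17.5 to 19.1 in P10 and P320. Of 5 endothelial markers 3 had one, PECAM1 and CDH5 having none, and their sum was 23.4 to 24.5 CPM in C, 11.8 to 18.8 in the adapted libraries, 21.5 to 23.1 in P10 and 19.6 to 20.0 in P320.

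Single markers moved with adaptation as well. In T320 5 of the 10 epithelial markers were lost, where 15.5% of all peaks were. These were MSLN (-2.34), SOX17 (-1.57), WT1 (-1.46), MUC16 (-1.30) and EPCAM (-1.29). Of the 5 blood markers ITGB2 (1.68) and CSF1R (1.34) were gained there, where 15.0% of all peaks were, and of the 3 endothelial ones VWF (-1.85) and TIE1 (-1.69) were lost. ITGB2 and CSF1R were the only blood markers with positive values in T320, and the median of the 5 was -0.31. Without T320 replicate 2 the MUC16 (-0.72), EPCAM (-0.99), CSF1R (1.23) and VWF (-1.50) calls were lost, without C replicate 2 those of EPCAM (-1.21) and CSF1R (0.86), and with the window offset or the compared groups alone that of EPCAM. TIE1 stood at -1.0 with the window offset, and MUC16 at -2.07 without T320 replicate 1. In the adapted mean MSLN (-2.12), WT1 (-1.05), MUC16 (-1.02) and VWF (-1.77) were lost and ITGB2 (1.10) was gained. Of all peaks 12.7% were lost there and 9.97% gained. Only 2 of the 5 blood markers had positive values in the adapted mean, and their median was -0.27. The WT1, MUC16 and ITGB2 calls each ended without C replicate 2 (-0.70, -0.99 and 0.85). The MUC16 call also ended without replicate 2 of T5, T20, T80, T160 or T320 (-0.99 to -0.93), the WT1 call under the window offset (-0.66), and the ITGB2 call under TMM from gene-end peaks and the trended offset (0.99 each). In P320 KRT18 (1.39), SOX17 (1.01) and RUNX3 (1.52) were gained, where 3.94% of all peaks were. Under TMM from gene-end peaks KRT18 (0.91) and SOX17 (0.56) were not called in P320. The SOX17 call there also ended without C replicate 1 (0.65) and under the trended offset (0.80), total-count scaling (0.95) and the window offset (0.97). The part of these markers in the member values was not tested.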

How the data were processed

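Omni-ATAC libraries of roughly 50000 cells were sequenced with paired reads on a NextSeq instrument, per the labels' protocols. The authors deposited 1 table of raw counts per consensus peak, with no normalization. The tools listed are MACS2, HOMER 4.1 and DESeq2, the read tools Bowtie2, Trim Galore, SAMtools and Picard, and deepTools in versions 3.5.1 and 3.1, all without roles and for GRCh38, per the submitters' processing notes. Whether reads or fragments were counted, how duplicates were treated and whether starts count from 0 is not given in the sources used here. Of 28 samples in the labels 20 have a column. The other 8, T320 cells with or without drug and after 120 drug-free days, are not analysed here.

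Counts were fitted with edgeR 4.0.16 (R 4.3.3, quasi-likelihood, robust, TMM) over the 10 groups without a replicate block, adjusted over all peaks. The expression filter removed no peak from this fit. The dose trend was fitted to counts summed over replicates per adapted population against log2 dose, with 105037 peaks left after the filter. The pipeline was tested on simulated data: for T320 against C over 105048 peaks, 71% of 100 peaks changed by 2 log2 units had adjusted p under 0.05, and 9% of 100 changed by 1. Far fewer peaks were changed in the simulation than were called in T320, where 15.0% were gained and 15.5% lost. An adjusted p is harder to reach when few peaks change, so the simulated rates can be lower than those in the data. In T320 against C SLFN13, at 0.90, had adjusted p = 0.0055 (edgeR), and SLFN12, at 0.63, had 0.073. Standard errors cover counting error and the spread between libraries.

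Gene positions, names and promoters came from RefSeq (GRCh38.p14). All 6 member genes matched by symbol, and 3 of them have a promoter sequence in the table used. Exons were not annotated here. A start peak overlaps a RefSeq start or lies within 1 kb of it, and either end served where no start is given. A start peak can belong to a neighbouring gene as well. One member peak is not reported singly here, counts over 8 members include it, and the other 7 are named, as are the genes of the lists called against C in T320, P320 or the adapted mean. Members, lists and comparisons were chosen with earlier results of these data known. RAD51D, LIG3, POU3F3's values and the markers were named after their values were seen.

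Same-numbered libraries of C and the T populations deviated together, with correlations of the replicate differences from 0.17 to 0.59 over 28 pairs of groups. Pairs with P10 or P320 had -0.10 to -0.0003 over 17 pairs. Within a group replicates differed by 2.11 to 8.48 in chi-square per peak, above the 1 of sampling noise. Other settings were TMM from gene-end peaks, scaling by total counts, a trended offset (cyclic loess), a window offset (median shift per 5 Mb), a replicate block, DESeq2 1.42.0, no filter, a strict filter (2 CPM in 2 libraries), no fold minimum, a fit of only the groups compared, and a fit without each library in turn. A group left with 1 library was assumed to vary like the others. Tallies of alternatives include the settings with no filter and with no fold minimum, neither of which could end a call.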

Additional observations from a re-analysis of the deposited data

Results flagged for a closer look

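The first SLFN5 body peak (chr17:35253845-35254892) stood out because the test of a difference between adapted and exposed cells in their response to dose passed. P320 against P10 gave -0.82, while the T320 mean lay above the T10 mean. The difference between T320 minus T10 and P320 minus P10 was 1.27 ± 0.44 (adjusted p = 0.038, edgeR), with T10 at 4.08 and 8.13 CPM, T320 at 8.05 and 8.83, P10 at 7.85 and 6.63 and P320 at 3.60 and 4.57. Without any 1 of 7 of the 8 libraries, T10 replicate 2 being the exception, it was no longer called, with values from 0.88 to 1.44.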

How the results depend on the processing

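Counts of called peaks in the cluster moved under these settings. The share of all peaks called under each setting is not given beside them, so a higher or lower count is not a result about the members alone. With the window offset none was called in T5, T10 and T160 against C or in T10 against P10, and 2 were called in P10 against C. With TMM from gene-end peaks 2 were called in P10 against C, 1 in P320 against P10 and 4 in T320 against P320. This scaling moved the median of all peaks in P320 against C from -0.11 to -0.60, in P10 from -0.10 to -0.26, in T320 against P320 from 0.03 to 0.48 and in T10 to T160 against C to between -0.14 and -0.10. In P320 38.2% and 37.5% of counts fell in gene-end peaks, and 27.8% to 35.3% elsewhere. With the trended offset 0 were called in T10 against P10 and 1 in T320 against P320, and with the compared groups alone likewise 0 and 1. With no fold minimum 6 were called in T80 against C, 5 in the adapted mean, 4 in T10 against P10 and 4 in T320 against P320. Leaving out 1 library gave 0 to 1 in T5, 1 to 2 in T10, 1 to 4 in T20, 0 to 4 in T40, 0 to 3 in T160, 1 to 2 in T320, 1 to 2 in P10 and 0 to 1 in P320 against C. It gave 0 to 3 in T10 against P10, 0 to 2 in T320 against P320 and 0 to 1 for the dose difference between adapted and exposed cells. The cause of these moves was not tested, and no call reversed.

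The replicate block changed no call of a member peak. With it the SLFN11 peak stood at 1.49 ± 0.38 in T320 against C (adjusted p = 0.0019), and 2 members were called there. Depth limits the SLFN11 peak and both SLFN5 body peaks, whose lowest libraries held 24, 29 and 27 counts.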
